A study of Homo sapiens with 16 samples.

Results

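EGR1, EGR2, EGR3 and EGR4, the corepressors NAB1 and NAB2, and the immediate early genes IER2 and IER3 were followed as 8 genes named by symbol, of 58295 genes in the files. All 8 members passed the filter on low counts, as did 18073 genes in all. The EGR proteins are zinc finger transcription factors that bind a GC-rich element. Their genes are immediate early genes: growth factor, antigen receptor or phorbol ester signals reach them through ERK and through ternary complex factors that sit with SRF on CArG boxes, without new protein synthesis. NAB1 and NAB2 dock on EGR proteins and bring in the NuRD chromatin complex, and NAB2 is itself known as an EGR target, so that the group forms a feedback loop that in T cells is known for tuning activation and anergy. In GENCODE release 29 on hg38, the EGR genes lie on separate chromosomes, with EGR1 (ENSG00000120738) at chr5:138465490-138469315 on the plus strand, EGR2 (ENSG00000122877) at chr10:62811996-62919900 on the minus strand, EGR3 (ENSG00000179388) on chromosome 8 and EGR4 (ENSG00000135625) at chr2:73290929-73293705 on the minus strand. The corepressor genes are NAB1 (ENSG00000138386) at chr2:190646746-190692766 on the plus strand and NAB2 (ENSG00000166886) at chr12:57088894-57095476 on the plus strand. The other 2 members are IER2 (ENSG00000160888) at chr19:13150415-13154908 on the plus strand and IER3 (ENSG00000137331) at chr6:30743199-30744554 on the minus strand.

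The cells were JSL1, a clone of Jurkat, an established line of human leukemic T cells. The edited lines were HDAC7 E9 knock-in cells (iE9, cell line JSL1 HDAC7 E9+) and HDAC7 E9 knock-out cells (dE9, cell line JSL1 HDAC7 E9-/-), both made with CRISPR-Cas9, and they were set against unedited wild type (WT) cells. HDAC7 is a class IIa histone deacetylase, and exon 9 is an alternative exon at chr12:47795906-47796016 (hg38, minus strand). Each line was grown for 48 h with PMA at 20 ng/mL, a phorbol ester (phorbol 12-myristate 13-acetate) that activates protein kinase C and through it ERK, or in growth medium alone. There were 3 PMA and 3 unstimulated libraries of iE9, 3 and 3 of dE9, and 2 and 2 of WT, 16 in all. The labels do not say whether an edited line is 1 clone, nor that replicates came from separate cultures, so p-values measure only the spread between these libraries. The series text names the unstimulated state as time 0, whereas the sample labels give 48 h for every library, and the labels were followed here.

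Libraries held 14536537 to 21888896 estimated counts. The mitochondrial share of counts was 12.81% with PMA and 9.17% unstimulated in the iE9 libraries numbered 1, against 5.2% to 6.39% in the other 7 PMA libraries and 3.0% to 4.14% in the other 7 unstimulated ones. It was thus higher with PMA on average in each line, and its part in the results was not tested. In iE9 the groups overlapped, since the unstimulated library numbered 1 lay above the PMA libraries numbered 2 and 3 (5.98% and 5.67%). Both iE9 libraries numbered 1 stood apart from their replicates, with a chi-square per degree of freedom of 101.75 to 131.53 against 8.24 and 17.45 between the other replicates. The dE9 PMA library numbered 1 did so less (102.02 and 116.4 against 53.17). Transcripts with HDAC7 exon 9 made up 42.31% to 63.0% of the transcripts that span it in iE9 with PMA and 51.78% to 74.85% in unstimulated iE9, against 0% to 7.37% in all dE9 libraries and 43.08% to 53.76% in all WT libraries. The iE9 libraries with PMA thus overlapped WT in the exon they were labelled for, and iE9 below means the libraries labelled so. The unstimulated iE9 library numbered 2, at 51.78%, also lay within the range of all WT libraries. All unstimulated iE9 libraries lay above the unstimulated WT ones (46.6% and 47.49%). T cell markers were all measured (11 of 11), with summed levels of 4050 to 7780 CPM (counts relative to library size, with TMM factors) over all PMA libraries and of 2230 to 4010 CPM over all unstimulated ones. The B cell list reached 206 to 403 CPM in iE9 with PMA, against 38.6 to 123 CPM in unstimulated iE9, with MS4A1 at 0 counts under PMA. The myeloid, natural killer, erythroid, epithelial and stromal lists stayed under 100 CPM in all libraries, and the part of these lists in the results was not tested. In bulk RNA, fewer cells with a transcript and less of it per cell cannot be told apart.

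Expression 48 h after PMA was compared with unstimulated cells in each line, the treatment comparison of the design. In all 3 lines EGR1, EGR2, EGR3, NAB2, IER2 and IER3 rose, EGR4 rose in dE9 and WT, and NAB1 did not pass the main test in any line. That test held no replicate block, and with one NAB1 was called as lower in dE9 and WT. The counts that follow are from the main test. The members were chosen with earlier results of these data known, so setting them beside all genes is a description. Of the 8 members, 6 rose in iE9, 7 in dE9 and 7 in WT, and 0 fell. Over all genes tested, 27.1% were called in iE9 (12.6% higher, 14.4% lower), 33.5% in dE9 (17.1% higher, 16.5% lower) and 22.3% in WT (11.1% higher, 11.3% lower). All PMA libraries lay above all unstimulated ones for 6 members in iE9, 6 in dE9 and 7 in WT, beside 20.1%, 22% and 37.4% of all genes. The median log2 fold change of the members was 2.46 in iE9, 4.17 in dE9 and 3.88 in WT, beside -0.01, 0.06 and 0.03 over all genes. All levels below are CPM unless TPM is named, and a gene is called at an adjusted p under 0.05.

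**Figure D1:**
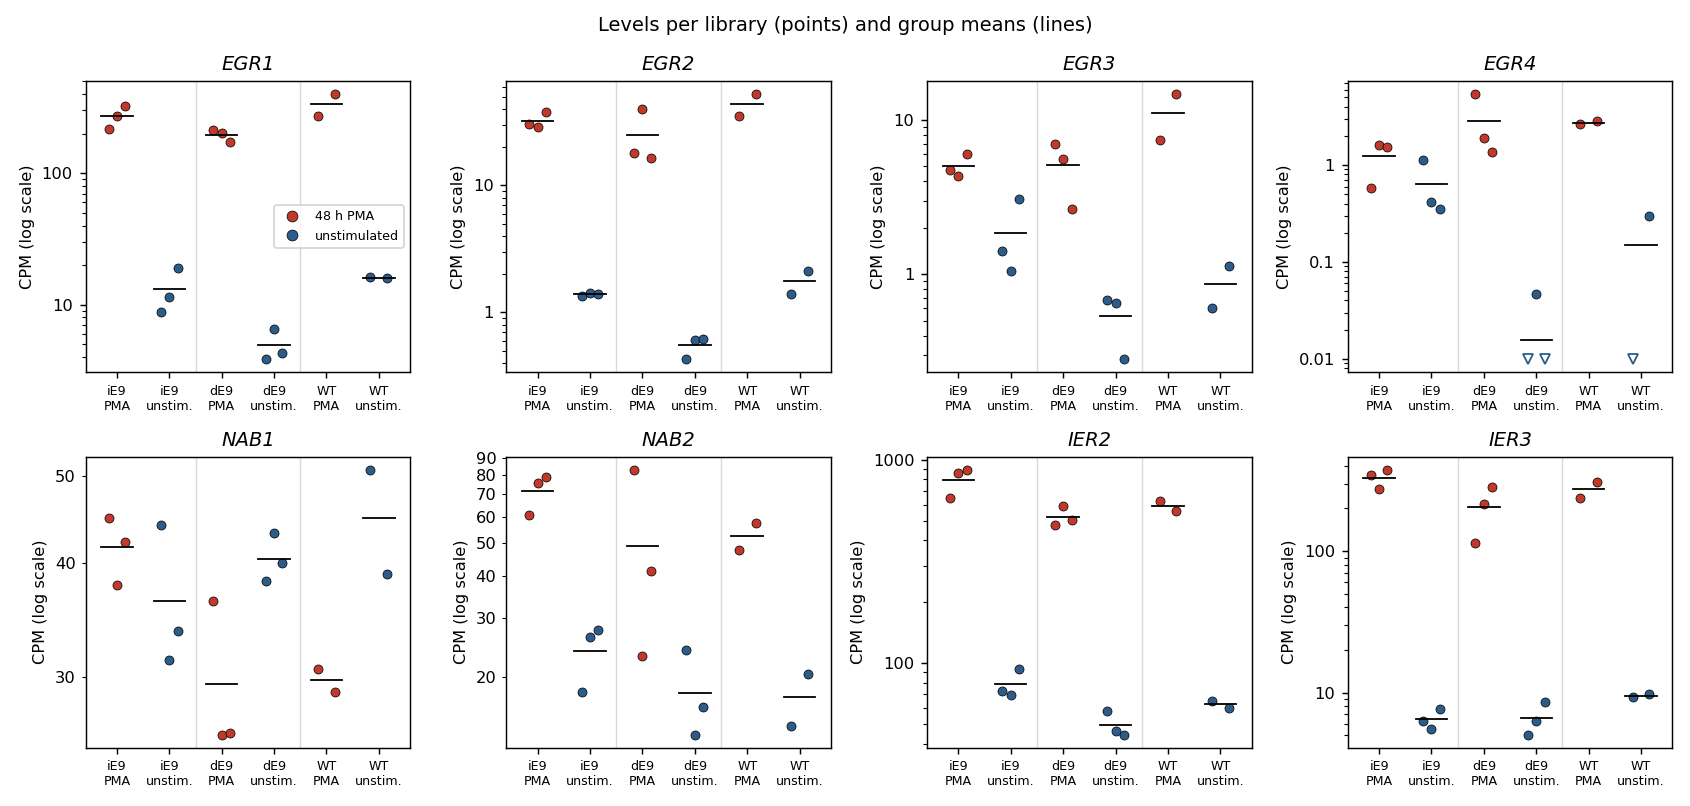
CPM of the 8 members in each library, on a log scale, by line and treatment; points are libraries, lines are group means, and open triangles stand for libraries with 0 counts. EGR1, EGR2, IER2 and IER3 with PMA lie more than 10 CPM above every unstimulated library, whereas NAB1 stays between 25.9 and 50.7 CPM throughout.

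EGR1, the best known member and the activator for which the NAB proteins were found, was the most abundant EGR transcript. It stood at 217, 272 and 323 CPM in iE9 with PMA, against 8.85, 11.4 and 19.1 CPM in unstimulated iE9. In dE9 it had 214, 203 and 171 CPM with PMA and 3.88, 6.59 and 4.29 CPM without. In WT it had 272 and 398 CPM with PMA and 16.2 and 16.1 CPM without. Every PMA library lay far above every unstimulated one, and the unstimulated dE9 libraries were the lowest of all. On the log2 scale the fold change was 4.37 ± 0.30 (SE) in iE9, 5.31 ± 0.32 in dE9 and 4.38 ± 0.37 in WT, with adjusted p of 8.12e-07, 2.04e-07 and 8.39e-06 by edgeR's quasi-likelihood test.

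EGR2, which in T cells is linked to anergy and tolerance, rose by a similar factor from a level near the detection limit. It had 30.4, 28.6 and 37.6 CPM in iE9 with PMA, against 1.36, 1.42 and 1.39 CPM in unstimulated iE9. In dE9 the values were 18.1, 39.8 and 16.3 CPM with PMA and 0.431, 0.608 and 0.621 CPM without. WT had 35.4 and 52.2 CPM with PMA and 1.41 and 2.13 CPM without. No PMA library overlapped an unstimulated one, and dE9 was again lowest at rest. The log2 fold changes were 4.53 ± 0.36 in iE9, 5.46 ± 0.39 in dE9 and 4.62 ± 0.43 in WT (edgeR adjusted p = 2.08e-06, 6.48e-07 and 1.62e-05).

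The promoters of EGR1 and EGR2 are printed because both hold the CArG box (searched as CC, 6 bases of A or T, GG) through which SRF acts on immediate early genes. These are bases -150 to -1 from the RefSeq start site, from RefSeq on GRCh38.p14, with CArG boxes in capitals.
EGR1, chr5:138465329-138465478, plus strand: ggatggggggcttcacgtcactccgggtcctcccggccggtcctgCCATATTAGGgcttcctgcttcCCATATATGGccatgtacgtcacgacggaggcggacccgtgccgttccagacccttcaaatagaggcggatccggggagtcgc
EGR2, chr10:62816367-62816516, minus strand: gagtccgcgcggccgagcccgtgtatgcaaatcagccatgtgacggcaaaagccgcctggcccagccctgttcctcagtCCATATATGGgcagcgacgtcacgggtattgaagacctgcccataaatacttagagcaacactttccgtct
The EGR1 stretch held 2 boxes, at -105 to -96 and -83 to -74, and the EGR2 stretch 1, at -71 to -62. In each, the box closest to the start read CCATATATGG and was followed within a few bases by ACGTCA, the core of a cAMP response element. Among 35116 RefSeq windows of the same kind, from 250 bases before to 50 after a start site, 1.29% held a CArG box and 7.98% held ACGTCA on either strand. Motifs were picked after the sequences were seen, and a match describes letters, not binding. Of the 8 members, 6 were in the promoter table; EGR3 and IER3 were not. The windows of NAB1, NAB2, EGR4 and IER2 and the other 2 EGR2 start sites held no CArG box.

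EGR3, which acts beside EGR2 in T cells, was a low transcript whose fold change was smallest in iE9, though no test of that difference passed. It had 4.74, 4.31 and 6.07 CPM in iE9 with PMA, against 1.41, 1.05 and 3.06 CPM in unstimulated iE9. The dE9 values were 6.99, 5.62 and 2.65 CPM with PMA and 0.678, 0.654 and 0.282 CPM without. WT had 7.42 and 14.7 CPM with PMA and 0.603 and 1.13 CPM without. The groups did not overlap in any line, but in iE9 the gap was narrowest, between 4.31 and 3.06 CPM. The log2 fold change was 1.46 ± 0.49 in iE9, 3.22 ± 0.53 in dE9 and 3.66 ± 0.65 in WT (edgeR adjusted p = 0.037, 0.000415 and 0.00147). The iE9 call was lost without both libraries numbered 1 (log2 1.35, adjusted p = 0.132), with a replicate block shared by all lines (adjusted p = 0.051) and when any iE9 library other than the unstimulated one numbered 3 was left out (adjusted p of 0.0543 to 0.145). It was kept with a block within lines (adjusted p = 0.00187). The difference in response was -1.76 ± 0.70 on the log2 scale between iE9 and dE9 and -2.20 ± 0.78 between iE9 and WT (adjusted p = 0.621 and 0.735).

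EGR4, the least abundant member, was near the limit of counting in unstimulated cells. It had 9, 26 and 28 counts in iE9 with PMA, against 21, 8 and 5 in unstimulated iE9. In dE9 it had 117, 41 and 24 counts with PMA and 0, 1 and 0 without. WT had 46 and 52 counts with PMA and 0 and 5 without. The groups overlapped in iE9 only, where the library numbered 1 had more counts at rest than with PMA. In dE9 the single unstimulated count gives a ratio of 165 with an exact 95% interval of 29.2 to 6540, which covers counting error only, and the fitted log2 fold change depends on the prior count (edgeR adjusted p = 0.000367). In WT the log2 fold change was 4.10 ± 1.08 (adjusted p = 0.0149), and it lost its call without the unstimulated library numbered 1 (3.19, adjusted p = 0.116) and without the PMA library numbered 2 (4.05, adjusted p = 0.057). Without the unstimulated library numbered 2 the one left held 0 counts, and the fitted value of 8.63 (adjusted p = 0.0183) then depends on the prior count. In iE9 it was 0.95 ± 0.76 (adjusted p = 0.383), against 1.67 without the unstimulated library numbered 1 and 2.01 without both libraries numbered 1 (adjusted p = 0.172 and 0.126). The iE9 response minus the dE9 response had an adjusted p of 0.262 by edgeR and 0.0252 by DESeq2, and over the settings tried it ran from 0.000296 to 0.552.

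NAB2, the corepressor known to be inducible, rose in all lines by a smaller factor than EGR1 and EGR2. It had 60.9, 75.5 and 78.8 CPM in iE9 with PMA, against 18.1, 26.3 and 27.5 CPM in unstimulated iE9. In dE9 NAB2 had 82.8, 23.1 and 41.2 CPM with PMA and 24.0, 13.5 and 16.3 CPM without. WT had 47.7 and 57.6 CPM with PMA and 14.3 and 20.5 CPM without. In iE9 and WT the groups were apart, whereas in dE9 the PMA library numbered 2 lay below 1 unstimulated library. Log2 fold changes were 1.58 ± 0.36 in iE9, 1.45 ± 0.36 in dE9 and 1.60 ± 0.45 in WT (edgeR adjusted p = 0.00502, 0.00653 and 0.0193). In WT the call was lost without either unstimulated library (adjusted p = 0.16 and 0.0583) or the PMA library numbered 2 (0.103), and in dE9 when the fit held the compared groups alone (0.0527). Without the dE9 PMA library numbered 1 the dE9 value was 0.84 (adjusted p = 0.0319).

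NAB1, the constitutive partner of NAB2, passed the main test in no line. It had 44.9, 37.8 and 42.3 CPM in iE9 with PMA, against 44.2, 31.3 and 33.7 CPM in unstimulated iE9. In dE9 it had 36.4, 25.9 and 26.0 CPM with PMA and 38.3, 43.2 and 40.0 CPM without. WT had 30.6 and 28.9 CPM with PMA and 50.7 and 38.9 CPM without. The PMA libraries were all lower in dE9 and WT, and the groups overlapped in iE9. Its log2 fold change was 0.20 ± 0.18 in iE9, -0.46 ± 0.18 in dE9 and -0.59 ± 0.22 in WT (edgeR adjusted p = 0.452, 0.0612 and 0.0665). A replicate block within lines gave adjusted p of 0.024 in dE9 and 0.0308 in WT, and leaving out the dE9 PMA library numbered 1 gave -0.64 and 0.01. The iE9 response exceeded the others by 0.66 ± 0.25 (dE9) and 0.79 ± 0.28 (WT), with adjusted p of 0.61 and 0.749.

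At least 1 promoter window of each NAB gene held the EGR element (GCGNGGGCG, searched on both strands, with any N), which also overlaps GC boxes bound by other factors. A stretch of each is printed, from RefSeq on GRCh38.p14, with the element in capitals. The NAB1 stretch holds 2 overlapping matches, which read as 1 run of capitals, and both lie on the opposite strand, so the reverse complement is shown in place.
NAB1, chr2:190648843-190648871, plus strand: gcccagcggcCGCCCCCGCCCCCGCccgg
NAB2, chr12:57089042-57089070, plus strand: tgtgcgtcctGCGGGGGCGgaggcgcgga
The NAB2 match lay at -62 to -54 and was its only one, and the NAB1 window around its first start site held 3, at -42, -36 and 14. The next NAB1 window, which overlaps the first, held 4, and the window around the last start site (chr2:190659158) held 0. The element stood in 9.43% of the 35116 windows, in the EGR1 window at -198 to -190, and in 1 of 3 EGR2 windows.

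IER2, a nuclear immediate early protein, had the highest mean TPM of the members in every group. It had 646, 856 and 889 CPM in iE9 with PMA, against 72.4, 69.7 and 93.6 CPM in unstimulated iE9. In dE9 IER2 had 477, 589 and 504 CPM with PMA and 58.2, 46.4 and 44.4 CPM without. WT had 626 and 560 CPM with PMA and 64.7 and 60.2 CPM without. Libraries of a group lay close together, and no PMA library came near an unstimulated one. The log2 fold change was 3.34 ± 0.19 in iE9, 3.40 ± 0.19 in dE9 and 3.25 ± 0.23 in WT (edgeR adjusted p = 3.46e-07, 1.22e-07 and 3.44e-06), and by unadjusted p it ranked 1, 2 and 4 among all genes.

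IER3, a short-lived protein known for modulating apoptosis and ERK signalling, had 342, 273 and 374 CPM in iE9 with PMA, against 6.30, 5.51 and 7.66 CPM in unstimulated iE9. In dE9 it had 114, 214 and 285 CPM with PMA and 5.05, 6.31 and 8.58 CPM without. WT had 238 and 309 CPM with PMA and 9.31 and 9.72 CPM without. The spread was widest in dE9 with PMA, and in each line all PMA libraries lay above the unstimulated ones. The log2 fold change was 5.67 ± 0.34 in iE9, 4.94 ± 0.33 in dE9 and 4.84 ± 0.40 in WT (edgeR adjusted p = 3.46e-07, 4.75e-07 and 6.81e-06).

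**Figure D2:**
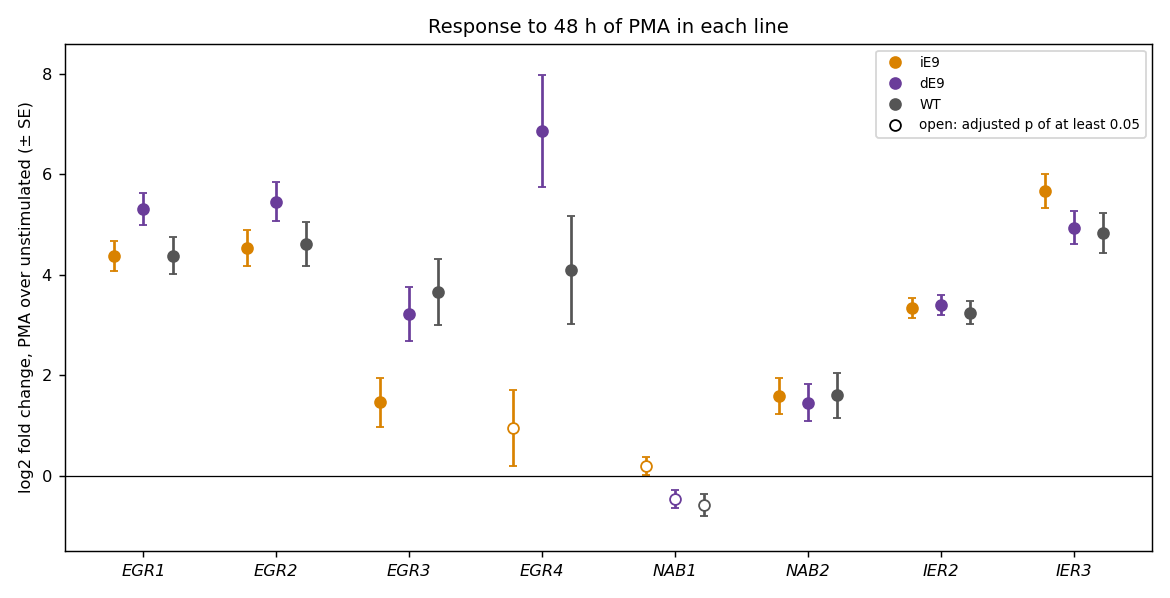
Log2 fold change of each member with PMA over unstimulated cells, with its SE, in iE9, dE9 and WT; filled points have an adjusted p under 0.05. IER2 lies between 3.25 and 3.40 and NAB2 between 1.45 and 1.60, NAB1 lies near 0, and EGR3 and EGR4 are lowest in iE9, at 1.46 and 0.95.

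Levels of different genes were set side by side as TPM, which is per transcript length. With PMA the order was the same in iE9, dE9 and WT for the top 4: IER2 (442, 285 and 332 TPM), IER3 (379, 233 and 318 TPM), EGR1 (119, 82.9 and 146 TPM) and NAB2 (42.1, 28.5 and 29 TPM). IER2 and IER3 overlapped in every line, EGR1 stood apart from its neighbours, and EGR3 and EGR4 came last, with means under 4 TPM. In unstimulated cells NAB1 came second to IER2, at 17.7 TPM in iE9, 21.3 TPM in dE9 and 22.3 TPM in WT, and in dE9 these 2 overlapped. EGR1 made up 85.4% ± 1.61 of the EGR TPM in iE9 with PMA (SD, n = 3) and 74.4% ± 4.22 without, so the EGR sum mainly follows EGR1.

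The ratio of summed NAB to summed EGR transcripts changed sides with PMA in each line. In iE9 its log2 was -1.06 ± 0.20 with PMA and 2.17 ± 0.47 without (SD, n = 3 each). In dE9 it was -1.30 ± 0.67 and 3.65 ± 0.56 (n = 3 each), and in WT -1.90 ± 0.22 and 1.98 ± 0.26 (n = 2 each). All PMA libraries lay below 0, with more EGR than NAB transcripts, and all unstimulated ones above it. The NAB sum itself was 65.5 ± 6.32 TPM with PMA and 30.3 ± 3.24 TPM without in iE9, 43.2 ± 20.9 and 31.8 ± 0.65 TPM in dE9, and 46.1 ± 6.39 and 31.4 ± 1.68 TPM in WT. In dE9 the PMA library numbered 2, at 26.3 TPM, lay below all 3 unstimulated ones. Within it, the NAB2 share was 64.0% ± 4.13 with PMA and 41.8% ± 4.84 without in iE9, 62.8% ± 11.8 and 33.2% ± 8.32 in dE9, and 63.0% ± 1.98 and 29.1% ± 10 in WT. These ratios were described and not tested, since their members were.

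**Figure D3:**
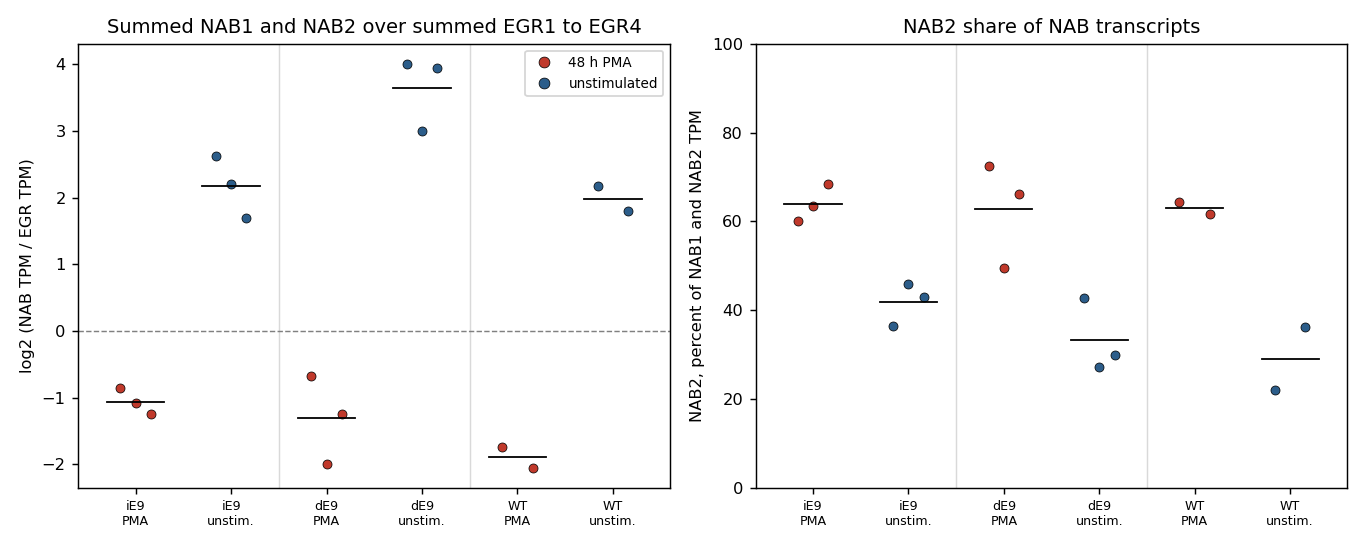
Left, log2 of summed NAB1 and NAB2 TPM over summed EGR1 to EGR4 TPM in each library; right, NAB2 as a percent of NAB TPM; points are libraries and lines are group means. Group means of the log2 ratio are -1.06, -1.30 and -1.90 with PMA in iE9, dE9 and WT, and 2.17, 3.65 and 1.98 without.

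Transcript use within the members was compared between PMA and unstimulated cells over the 3 lines, for the 20 transcripts that reached 10% of their gene's TPM in a group. The exact permutation test shuffled treatment labels within lines (2400 arrangements, two-sided, smallest possible p of 0.000833), and 7 of the 20 passed after Benjamini-Hochberg adjustment. With labels swapped only within same-numbered pairs in iE9 and dE9 (384 arrangements), 0 of the 20 passed: IER2-201 and IER2-203 had the smallest p this allows, 0.00521 (adjusted p = 0.0521), and the other 5 had adjusted p of 0.0521 to 0.104. The 7 calls thus rest on libraries taken as unpaired. They were IER2-201 and IER2-203, IER3-201 and IER3-202, NAB1-203, and NAB2-201 and NAB2-202. Shares within a gene add up to the whole, so the 7 are not separate changes. The 2 IER3 forms mirror each other (7.73 and -7.73 percentage points), and the IER2 and NAB2 pairs nearly do. Transcripts of other genes were not tested, so no share over all transcripts stands beside this count. No transcript of EGR2 or EGR3 passed, and their shares rest on few counts at rest. EGR2-201 took 89.6% ± 6 of EGR2 TPM in iE9, 89.9% ± 9.41 in dE9 and 89.3% ± 10.7 in WT with PMA, against 80.2% ± 34.4, 66.7% ± 57.7 and 16.4% ± 23.3 without (SD, n = 3, 3 and 2; exact permutation p = 0.0842, adjusted p = 0.21). Salmon divides reads among overlapping transcripts, so a share is an estimate.

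IER2-203, an unspliced form that starts inside the intron of IER2-201 (chr19:13151975-13154908, plus strand), lost share. It took 4.2%, 2.6% and 2.4% of IER2 TPM in iE9 with PMA, against 13.3%, 16.8% and 17.0% in unstimulated iE9. In dE9 it took 6.0%, 3.8% and 6.0% with PMA and 23.9%, 26.9% and 36.8% without, and in WT 4.8% and 3.8% with PMA and 42.3% and 36.0% without. The groups were apart in every line, and the unstimulated share was lowest in iE9. The mean difference over lines was -23.82 percentage points (exact permutation p = 0.000833, adjusted p = 0.00833). The TPM of IER2-203 itself was 12.9 ± 0.889 with PMA and 5.99 ± 1.24 without in iE9, while the spliced IER2-201 was at 428 ± 93.9 and 32.0 ± 4.45 (SD, n = 3). Both forms were thus higher with PMA on average, and the spliced form more so.

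IER3-202, which keeps the single IER3 intron, gained share by a mean of 7.73 percentage points (exact permutation p = 0.00917, adjusted p = 0.0367). The call was lost without both iE9 libraries numbered 1 (adjusted p = 0.0889) and in 8 of the 16 tests that left out 1 library (0.05 to 0.0806). It took 20.7%, 11.2% and 10.4% of IER3 TPM in iE9 with PMA, against 0%, 3.2% and 0% in unstimulated iE9. In dE9 it took 7.8%, 15.4% and 5.6% with PMA and 0%, 7.9% and 13.5% without, and in WT 9.4% and 11.1% with PMA and 2.9% and 2.2% without. The dE9 groups overlapped, and unstimulated shares rest on 0 to 22 counts. The retained intron (chr6:30744197-30744308, minus strand, 112 bases, GRCh38, GENCODE release 29) is printed with its splice dinucleotides in capitals, since its reads tell the 2 forms apart.
IER3 intron: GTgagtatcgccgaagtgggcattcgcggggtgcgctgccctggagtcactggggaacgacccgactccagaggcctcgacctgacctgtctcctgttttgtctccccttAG

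NAB2-201 gained a mean of 17.52 percentage points and NAB2-202 changed by -17.68 (exact permutation p = 0.0142 and 0.0133, both adjusted p = 0.0405). NAB2-201 took 49.7%, 45.7% and 49.7% of NAB2 TPM in iE9 with PMA, against 21.9%, 50.5% and 52.0% in unstimulated iE9. In dE9 it took 46.5%, 61.8% and 52.3% with PMA and 24.9%, 27.9% and 34.7% without, and in WT 44.7% and 61.0% with PMA and 43.3% and 19.8% without. The groups were apart in dE9 and WT, and in iE9 the unstimulated library numbered 1 alone was low. Without both iE9 libraries numbered 1 the mean difference was 14.04 points (adjusted p = 0.0926), and only the IER2 pair still passed. The NAB2-201 call was also lost in 10 of the 16 tests that left out 1 library (adjusted p of 0.05 to 0.144), and that of NAB2-202 in 12 (0.05 to 0.148). NAB2-202 lacks exon 6 of NAB2-201, printed here (chr12:57093407-57093598, plus strand, GRCh38, GENCODE release 29); it is 192 bases long, a multiple of 3 equal to 64 codons.
NAB2 exon 6: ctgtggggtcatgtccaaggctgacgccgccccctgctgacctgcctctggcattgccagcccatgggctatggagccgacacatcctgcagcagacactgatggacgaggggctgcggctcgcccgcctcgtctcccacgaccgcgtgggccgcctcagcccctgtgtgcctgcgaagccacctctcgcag
NAB1-203, a form that begins at a later start site, gained 5.24 points (exact permutation p = 0.00417, adjusted p = 0.0278), a call lost in 4 of the 16 tests without 1 library (0.05 to 0.0611) and without both iE9 libraries numbered 1 (0.0889). Its share was 14.3% ± 3.74 with PMA and 10% ± 3.47 without in iE9, 14.6% ± 3.72 and 8.97% ± 2.06 in dE9 (SD, n = 3), and 11.9% ± 3.61 and 6.15% ± 0.495 in WT (n = 2).

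**Figure D4:**
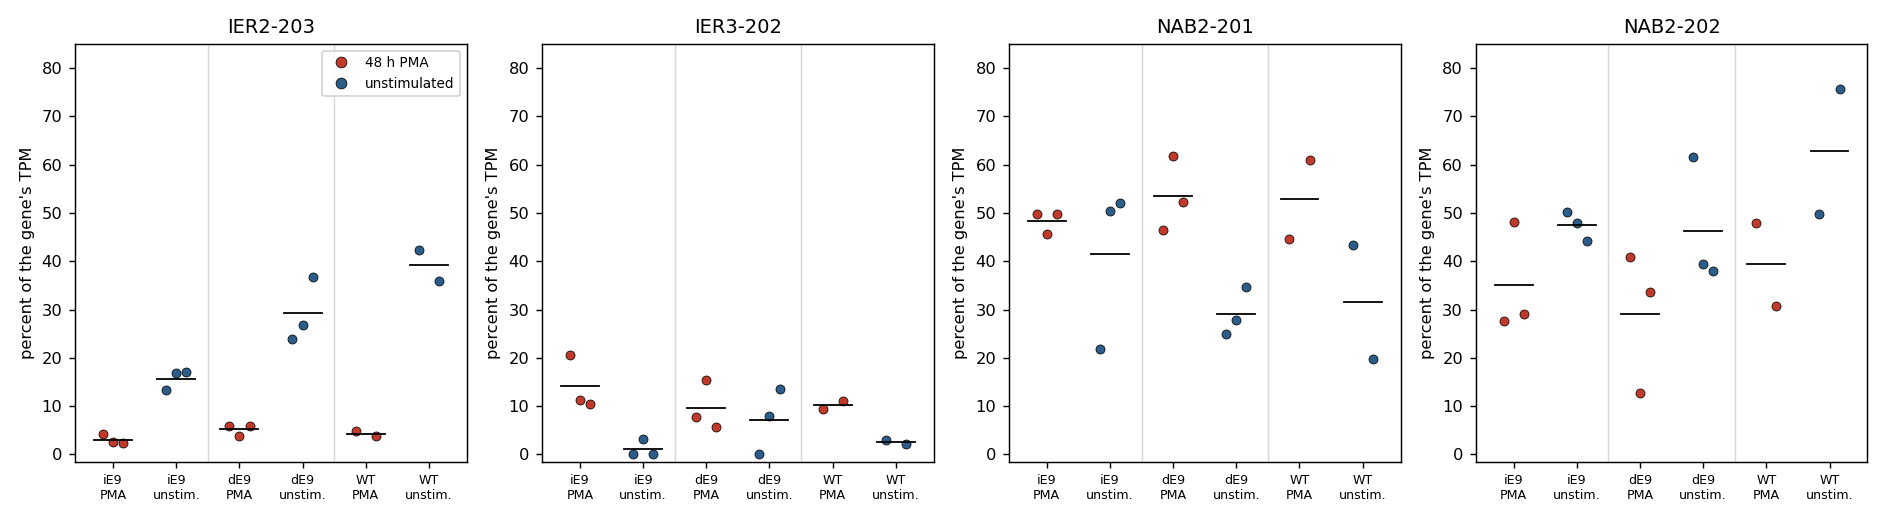
Share of the gene's TPM taken by IER2-203, IER3-202, NAB2-201 and NAB2-202 in each library; points are libraries and lines are group means. IER2-203 is at 6.0% or less in all PMA libraries and at 13.3% or more in all unstimulated ones, while the other 3 transcripts overlap in at least 1 line.

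The edited lines were then compared within each treatment, the question the series asks of HDAC7 exon 9. In unstimulated cells, iE9 had more EGR1 than dE9, with a log2 fold change of 1.40 ± 0.28 (edgeR adjusted p = 0.0252), and this was the 1 member of 8 that was called. Over all genes 1.72% were called in that comparison, 0.957% as higher. The EGR1 call was lost without the dE9 library numbered 1 or 3 or the iE9 library numbered 3 (adjusted p = 0.0928, 0.104 and 0.0906), and when the fit held the compared groups alone (0.112). In the same comparison 2 of the 3 natural killer markers tested were called higher (median log2 fold change of 3.51), and the list summed to 14.9 to 49.6 CPM in iE9 and 12.2 to 16 CPM in dE9, where GNLY and NCR1 were at 0 counts. The B cell list summed to 38.6 to 123 CPM in iE9 and 7.0 to 24.3 CPM in dE9, with PAX5 at 0 counts in both and MS4A1 at 0 in dE9, and 0 of its 2 tested genes were called (median 3.53). The part of these markers in the EGR1 difference was not tested. HDAC7 itself was at 168 CPM on average in unstimulated iE9, 53.1 CPM in unstimulated dE9 and 51.9 CPM in unstimulated WT. Unstimulated iE9 thus had more total HDAC7 than dE9 and WT (log2 1.66 ± 0.22 and 1.70 ± 0.25, edgeR adjusted p = 0.00224 and 0.00698). With PMA iE9 exceeded dE9 by 0.90 ± 0.21 (edgeR adjusted p = 0.0393). Exon 9 and total HDAC7 level cannot be told apart between these lines, and the part of that level in the EGR1 difference was not tested.

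The other EGR genes were also higher on average in unstimulated iE9 than in unstimulated dE9, without passing the edgeR test. The log2 fold change of iE9 over dE9 was 1.31 ± 0.40 for EGR2, 1.75 ± 0.53 for EGR3 and 4.71 ± 1.16 for EGR4 (adjusted p = 0.117, 0.117 and 0.0541), where the EGR4 value depends on the prior count. IER2 had 0.66 ± 0.18 (adjusted p = 0.0794). The libraries of these 4 genes and of EGR1 did not overlap, 5 members of 8, beside 11.4% of all genes with all iE9 libraries higher. DESeq2 called EGR1, EGR3, EGR4 and IER2, with adjusted p of 0.000233, 0.038, 0.0122 and 0.0133, beside 4.68% of the genes to which it gave an adjusted p. NAB1, NAB2 and IER3 overlapped between the lines, with log2 fold changes of -0.15, 0.42 and -0.04.

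With PMA, 0 members were called between iE9 and dE9, beside 2.61% of all genes. At an unadjusted p under 0.05, edgeR gave 3 members (NAB1, IER2 and IER3), beside 19.1% of all genes. DESeq2 called IER2 alone (adjusted p = 0.0162), beside 7.01% of the genes to which it gave an adjusted p. EGR1 was higher in iE9 by 0.46 ± 0.26 and EGR3 differed by -0.01 ± 0.46 on the log2 scale (edgeR adjusted p = 0.356 and 0.991). Without the dE9 PMA library numbered 1, NAB1 and NAB2 were called as higher in iE9 (log2 0.69 and 1.17, adjusted p = 0.0337 and 0.0325). Without both iE9 libraries numbered 1, IER2 was called (log2 0.74, adjusted p = 0.0352).

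Against WT, 0 members were called for iE9 without PMA (1.38% of all genes) or with it (1.12%), and DESeq2 called 0 in both, beside 4.65% and 4.02% of its genes. At an unadjusted p under 0.05 edgeR gave 0 members without PMA, beside 15.1% of all genes, and 3 with it, beside 14.2%. For dE9 against WT, edgeR called 0 genes of 18073 (0%) in either treatment, with 560 unstimulated and 459 PMA genes at an unadjusted p under 0.05. Of the 8 members these held 2 unstimulated (EGR1 and EGR2) and 3 with PMA (EGR1, EGR2 and EGR3), all lower in dE9. DESeq2 called 20 and 12 genes (0.126% and 0.0756% of its genes). Unstimulated EGR1 was among the genes of smallest p there, ranking 3, at -1.70 ± 0.31 on the log2 scale in dE9 relative to WT (edgeR adjusted p = 0.371, DESeq2 adjusted p = 0.000441). EGR2 had -1.66 ± 0.42 (edgeR adjusted p = 0.753). All 3 dE9 libraries lay below both WT libraries for both genes, and for IER2 and IER3 (4 of 8 members, beside 11.7% of all genes). With PMA the EGR1 difference between dE9 and WT was -0.77 ± 0.29 (edgeR adjusted p = 1).

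The response to PMA did not pass as different between lines for any member or any other gene by edgeR (0%). At an unadjusted p under 0.05 edgeR gave 1239, 1022 and 282 of 18073 genes for iE9 minus dE9, iE9 minus WT and dE9 minus WT. Of the 8 members these held 4 (EGR1, EGR3, EGR4 and NAB1), 3 (EGR3, EGR4 and NAB1) and 1 (EGR1). DESeq2 called 115, 59 and 1 genes, with 1 (EGR4), 0 and 0 members among them. For EGR1 the response differed by -0.94 ± 0.38 between iE9 and dE9 and by 0.93 ± 0.43 between dE9 and WT (edgeR adjusted p = 0.638 and 1).

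**Figure D5:**
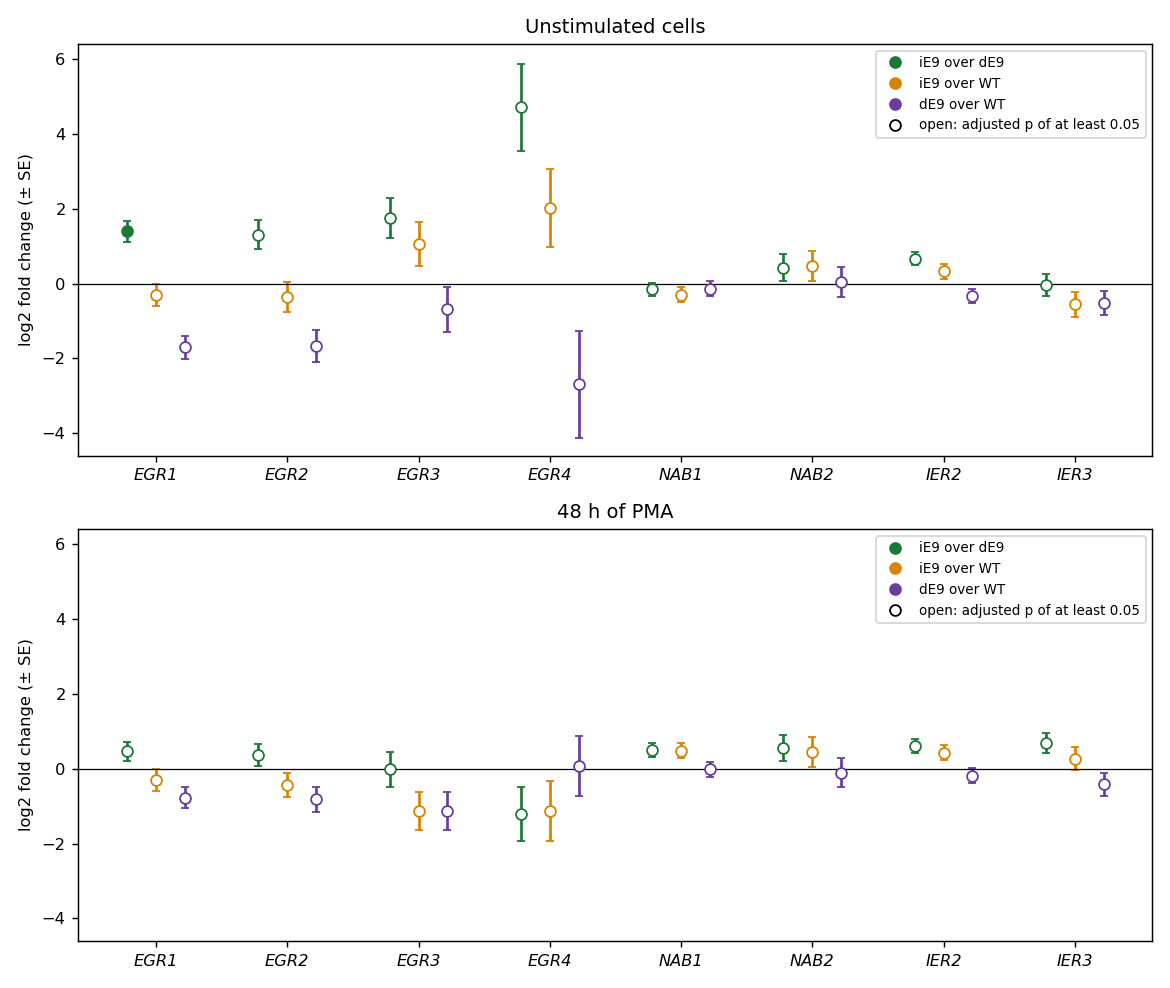
Log2 fold change with its SE of each member between lines, for unstimulated cells (top) and after 48 h of PMA (bottom); filled points have an adjusted p under 0.05. EGR1 in unstimulated iE9 over dE9, at 1.40, is the single filled point, and the unstimulated EGR values of dE9 over WT lie between -0.68 and -2.70.

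Genes around the loop were counted from 5 lists. The lists were chosen with earlier results of these data known. Their counts and medians beside those of all genes are a description and not a test. Of 13 genes reported as EGR targets in lymphocytes that were tested (16 listed), 7 rose in iE9, 6 in dE9 and 5 in WT, and 0 fell. Over all genes tested, 12.6%, 17.1% and 11.1% were called higher. The list's median log2 fold changes were 1.59, 1.90 and 0.72, beside -0.01, 0.06 and 0.03 over all genes. NDRG1, an anergy-associated factor, had 2.13 ± 0.26, 2.93 ± 0.27 and 2.68 ± 0.33 in iE9, dE9 and WT. DGKA, the diacylglycerol kinase that dampens the signal PMA mimics, had 1.85 ± 0.27, 2.32 ± 0.28 and 2.53 ± 0.34. CBLB, an E3 ligase that restrains T cell activation, had 1.80 ± 0.28, 2.11 ± 0.28 and 2.20 ± 0.35, and the adhesion receptor CRTAM had 2.68 ± 0.69, 5.69 ± 0.95 and 5.04 ± 1.22. These 4 were picked as the list's called genes of smallest adjusted p in WT, so their calls in WT follow from that choice. They were also called in iE9 and dE9, under the same treatment.

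Among 22 other immediate early genes, 10 rose and 1 fell in iE9, 12 and 1 in dE9, and 11 and 1 in WT. The shares over all genes were 12.6% higher and 14.4% lower in iE9, 17.1% and 16.5% in dE9, and 11.1% and 11.3% in WT. DUSP6, the ERK phosphatase, had log2 fold changes of 5.25 ± 0.32, 5.89 ± 0.34 and 6.03 ± 0.41 in iE9, dE9 and WT. PHLDA1 had 3.58, 3.45 and 4.55, and the orphan receptor gene NR4A3 1.80, 4.2 and 4.27. MYC fell, by 4.6 in iE9, 4.71 in dE9 and 5.41 in WT. These genes too were picked as the list's called genes of smallest adjusted p in WT, and their folds are not typical of the list. Median log2 fold changes of the list were 0.97, 1.20 and 1.13, beside -0.01, 0.06 and 0.03 over all genes.

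The remaining 3 lists held genes upstream and downstream of the loop, and their counts stand beside the shares of all genes given above (12.6% higher and 14.4% lower in iE9, 17.1% and 16.5% in dE9, 11.1% and 11.3% in WT). Of 12 genes of the route from ERK to SRF, 5 rose and 1 fell in iE9, 3 and 1 in dE9 and 1 and 0 in WT. Of 13 NuRD subunits, the complex that NAB proteins recruit, 1 rose and 6 fell in iE9, 1 and 6 in dE9, and 1 and 2 in WT. HDAC1 fell by 0.61, 0.70 and 0.68, the histone-binding subunit RBBP7 fell by 0.46, 0.90 and 0.83, and GATAD2B rose by 0.49, 0.44 and 0.52. These subunits are named because they were the ones called in WT. Of 10 other zinc finger factors that bind GC boxes, 1 rose and 1 fell in iE9, 0 and 1 in dE9 and 0 and 0 in WT. SP1, the gene called in dE9, had 0.05 ± 0.14 in iE9, -0.5 ± 0.14 in dE9 and -0.45 ± 0.17 in WT (edgeR adjusted p = 0.845, 0.0147 and 0.0793).

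Genes most alike to 4 members were found by the root mean square difference of centred log2 CPM over the 16 libraries, among 10872 genes. For EGR1 they were DUSP6 (0.64), ANTXR2 (0.66) and TOX2 (0.67), and for EGR2 ANTXR2 (0.54), ZFPM2 (0.54) and HS3ST3B1 (0.62). IER3 was closest to TRIB1 (0.46), IL16 (0.59) and DUSP6 (0.60), and NAB2 to VIM (0.32), HVCN1 (0.34) and MAFF (0.36). TRIB1 averaged 42.0 ± 7.59 CPM with PMA and 0.816 ± 0.282 CPM without in iE9, and MAFF 35.5 ± 5.45 and 12.4 ± 4.27 CPM (SD, n = 3). The likeness is a description over libraries that share the same PMA contrast.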

How the data were processed

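Polyadenylated RNA of 16 JSL1 libraries was sequenced. Per the submitters' processing notes, Salmon and DESeq2 were used on hg38, with versions and strandedness not given in the sources used here. The authors deposited estimated counts and TPM per transcript for each library, per the file headers, and a gene TPM table, whose 16 columns matched the gene sums (0 columns unused). All 205870 transcripts matched GENCODE release 29. Gene counts are rounded sums of the estimated counts.

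Genes were tested with edgeR 4.0.16 (R 4.3.3), by the two-sided quasi-likelihood F test over all 16 libraries with 6 group coefficients, TMM factors and filterByExpr, which kept 18073 of 33304 genes with a count. The Benjamini-Hochberg adjustment ran over these genes, with a threshold of 0.05. The common biological coefficient of variation was 31.8%. Alternatives were DESeq2 1.42.0, other size factors (RLE), no filter, a gene length offset, fits of the compared groups alone, replicate blocks, and leaving out libraries; the block within lines was added after the data were seen. The edgeR step was tested on simulated counts. Replicate pairs differed beyond sampling noise (lowest chi-square per degree of freedom 7.55). Same-numbered libraries deviated together across treatments in dE9 (r = 0.24 to 0.305, 3 pairs) and iE9 (0.19 to 0.441, 3 pairs). They did so less in WT (0.073) and not between lines (-0.068 to 0.12). The main tests held no replicate block, so the number entered as a pairing only in the alternatives. The edgeR block within lines paired WT libraries too, whereas the permutation test paired only those of iE9 and dE9.

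Transcript shares were percents of the gene's TPM, for members with a mean of at least 1 TPM. The members and lists were chosen with earlier results of these data known. The 8 members and HDAC7 were always named; each list gave up to 4 genes called in WT, by smallest adjusted p, or, with fewer than 2 called, the 2 of highest mean CPM, of which some are not reported here; likeness used genes of at least 5 CPM. NAB2 overlaps STAT6, IER3 overlaps IER3-AS1, and EGR3, NAB1 and IER2 overlap clone-named genes, all on the opposite strand, so their reads cannot be told apart if counting ignored strand. Levels of genes are TMM-scaled CPM unless TPM is named.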

Additional observations from a re-analysis of the deposited data

How the results depend on the processing

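Members called in the PMA comparisons stayed within 1.5 times under every alternative: 5 to 7 in WT, 7 to 8 in dE9 and 5 to 6 in iE9 when 1 library was left out, where a lone library was assumed to vary like the other groups. The replicate block (shared or within lines) added NAB1 in WT (adjusted p = 0.0438 and 0.0308) and dE9 (0.0288 and 0.024), as did fitting only the compared groups in WT (0.00918). For EGR3 in iE9 the shared block gave 0.051 and a gene length offset 0.0512. In unstimulated iE9 against dE9 the 1 member called became 4 without a low-count filter and 4 with DESeq2, 0 with only the groups compared, and 0 to 1 with 1 library left out. With PMA the 0 members became 1 without the filter (IER3), 1 with DESeq2, 1 without both iE9 libraries numbered 1, and 0 to 2 with 1 library left out. For dE9 against WT unstimulated the 0 became 2 without the filter (EGR1 and EGR2, adjusted p = 3.84e-08 and 0.0104) and 1 with DESeq2, and for the response of iE9 minus dE9 (EGR4) 1 and 1. The causes were not tested. Signs were followed for all members in the PMA comparisons and in iE9 against dE9. For unstimulated dE9 against WT and the responses only picked values were followed, and other comparisons with WT were not. Among these, signs turned for 2 uncalled values near 0. EGR3 in iE9 over dE9 with PMA, -0.01, was 0.067 with the length offset and 0.031 without both iE9 libraries numbered 1. With 1 library left out it ran from -0.327 to 0.284. IER3 in unstimulated iE9 over dE9, -0.04, then ran from -0.201 to 0.183, turning without the dE9 library numbered 3 or the iE9 library numbered 2.

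Over all genes, the count called in WT was 4038, against 6590 with the block within lines, 8284 with only the groups compared and 1419 to 1904 with 1 library left out. For iE9 against dE9 unstimulated 311 genes became 1319 without the filter, 180 with the length offset, 858 with DESeq2, 161 with only the groups compared and 152 without both iE9 libraries numbered 1, and with PMA 471 became 1801, 304, 1286 and 47 under the first 4 of these. For iE9 against WT 249 genes unstimulated became 1220, 156 and 824 under the first 3 and 99 without both iE9 libraries numbered 1, and with PMA 203 became 1162, 119, 713, 665 and 84 under these 5. For dE9 against WT the 0 genes became 132 unstimulated and 159 with PMA without the filter. For the responses, 0 genes became 480, 292 and 49 without the filter and 61 and 35 (iE9 minus dE9, iE9 minus WT) with the block within lines. With 1 library left out, genes called ran from 110 to 276 and 113 to 1035 for iE9 against dE9 (unstimulated and PMA), 18 to 139 and 24 to 73 for iE9 against WT, 0 to 1 and 0 to 174 for dE9 against WT, and 0 to 461, 0 to 2 and 0 to 22 for the 3 responses.

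The 7 transcripts whose share passed became 2 without both iE9 libraries numbered 1 and 2 to 7 with 1 library left out; IER2-201 and IER2-203 passed in all of these. With the replicate block within lines, a test added after the data were seen, it was 0. On protein-coding transcripts alone the exon 9 share in WT with PMA was 61.17%, against a mean of 48.42%. From CPM in place of TPM, the NAB to EGR log2 ratio was -1.43 in iE9 with PMA, -2.23 in WT with PMA and 1.72 in unstimulated WT. Depth limits EGR4 most, with 0 to 21 counts per unstimulated library.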
